A study of Homo sapiens with 6 samples.

Results

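The transcription factors that set up the red cell and megakaryocyte programmes were followed here through all their probe sets. The set comprised GATA1, GATA2, KLF1, TAL1, LMO2, LDB1, NFE2, ZFPM1, GFI1B and MYB. They were chosen by symbol, and all 10 of 10 listed genes were measured, by 20 of the 49293 probe sets other than controls. At the gene level they were 10 of 18132 genes, each gene being represented by its brightest probe set with 1 gene symbol.

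The labels name the cells as NCI-H929, which was established from a patient's multiple myeloma. In 3 samples (PRMT5_down) the cells carried a lentivirus that lowers PRMT5, an enzyme that puts symmetric dimethyl marks on arginine, and in 3 samples (control) a control lentivirus. The titles call both vectors sponges, while the treatment protocol names a short hairpin RNA against PRMT5 in pLKO.1 and calls the control cells normal. Positive cells were selected with puromycin, the design text also speaks of sorting, and the question put was which genes PRMT5 may act on. Each sample was hybridised to 1 Affymetrix array. Both groups carry replicate numbers 1 to 3. The labels do not say whether the numbers are separate cultures. Every p-value below therefore rests on the scatter among 6 arrays, part or all of which may be technical.

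GATA1 and GATA2 are zinc finger proteins that bind the same short DNA motif. GATA2 acts in stem and progenitor cells and GATA1 takes over during red cell and megakaryocyte maturation, with ZFPM1 (FOG1) as its cofactor. GATA1 works beside TAL1, a helix-loop-helix protein that pairs with E proteins, and LMO2 and LDB1 bridge them into one complex. KLF1 activates red cell genes, NFE2 pairs with small MAF proteins at globin and platelet genes, GFI1B represses through LSD1 and CoREST, and MYB sustains dividing progenitors.

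The binding motif of the GATA factors was searched in RefSeq promoter windows of build GRCh38.p14, which run from 250 bases before to 50 bases after each annotated start. Windows were at hand for 8 of the 10 genes, not for LMO2 and NFE2. The motif was AGATAA or its variant with a last G, AGATAG, or either one with a first T, which makes TGATAA and, with the last G as well, TGATAG. Both strands were searched, and no matches overlapped in the windows of these genes. Of all 35116 windows 8769, or 25%, held it, as did 4 of the 11 windows of the 8 genes. The stretches before the start of KLF1, TAL1 and GFI1B are shown because they hold this motif, the letters that GATA1 and GATA2 are known to prefer. The motif is in capitals, and in KLF1 and TAL1 it lies on the strand opposite to the gene. The KLF1 stretch lies at chr19:12887202-12887287 on the minus strand, from base -86 to -1 relative to the start. The TAL1 stretch lies at chr1:47232345-47232390 on the minus strand (-55 to -10), and the GFI1B stretch at chr9:132978558-132978603 on the plus strand (-136 to -91), each before 1 of the gene's 2 annotated starts. The other GFI1B window held AGATAG from base 3 after its start. A match describes the letters of the window and does not show that a factor was bound.
KLF1: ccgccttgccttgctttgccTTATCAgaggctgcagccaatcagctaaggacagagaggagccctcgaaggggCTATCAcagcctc
TAL1: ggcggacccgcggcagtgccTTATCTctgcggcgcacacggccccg
GFI1B: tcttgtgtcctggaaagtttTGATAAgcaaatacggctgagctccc

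Across the series the array medians were 5.29 to 5.31 on the log2 scale, and 3 arrays a group limit the precision of every difference. A background level was set on each array at the 95th percentile of 333 olfactory receptor genes, which gave 4.89 to 5.01. PRMT5 had a log2 signal of 8.63, 9.65 and 9.37 in PRMT5_down replicates 1, 2 and 3, against 9.93, 10.35 and 10.30 in control replicates 1, 2 and 3. The groups did not overlap, yet PRMT5 did not pass over all genes (log2 difference -0.98, SE 0.28, limma adjusted p = 1, and 0.21 with the replicate number as a block). Most markers of the labelled plasma cell identity were at or near background. Of 12 plasma cell markers 7 were at or below background on all 6 arrays, among them IRF4, CD38 and TNFRSF17, while XBP1 stood 5.13 to 5.94 log2 units above it and PRDM1, SDC1 and IGHA1 less than 1 unit above it on all 6. By contrast, 6 of 7 erythroid markers analysed were above background on all 6 arrays, as were 2 of 5 megakaryocyte markers. The summed log2 signal of the plasma cell markers was 54.20 to 55.21 in PRMT5_down and 54.88 to 56.30 in control, and that of the erythroid markers 58.27 to 63.40 in PRMT5_down and 55.02 to 59.17 in control. All 12 plasma cell markers had a lower mean in PRMT5_down, from -0.24 for SDC1 to -0.01 for POU2AF1. Of all genes 43.3% had a higher mean, and 7 of the 12 markers were at or below background throughout. SDC1 and IGKC, the latter at or below background on all 6 arrays, were the 2 lower within every replicate number, as were 15.2% of all genes. All 7 erythroid markers were higher in PRMT5_down within every number, as were 11.7% of all genes, and 6 of them were under 0.05 before adjustment when limma had the replicate number as a block. The lists were chosen with earlier results of these data known, which limits what these shares can show. No marker of either list passed after adjustment. The part of these markers in the differences below was not tested. The samples are named by their labels only.

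All 10 factors were above background on all 6 arrays, GATA2 by 5.81 to 6.38 log2 units and ZFPM1, the closest to background, by 2.90 to 3.43. Of their 20 probe sets 19 were above background on all 6 arrays. The exception was the dimmest GATA2 probe set, above it on 5 arrays. Over the whole series 56.3% of genes were above background on every array. Probes differ in how brightly they hybridise, so each factor is set against background and no factor's level against another's.

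**Figure D1:**
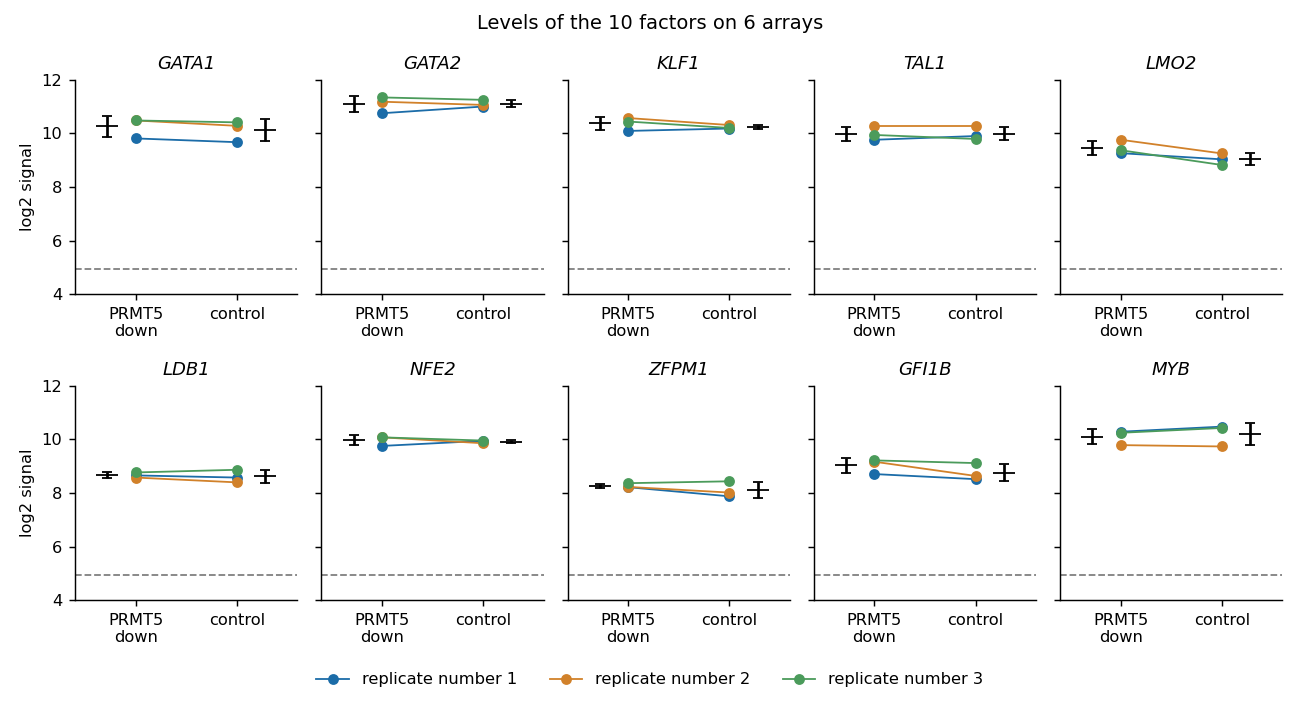
Log2 signal of each factor's brightest probe set on the 6 arrays, PRMT5_down left of control, with a line joining arrays of the same replicate number. Black marks give the group mean ± SD (n = 3 each) and the dashed line the mean background. All 10 factors lie above background on every array, and only for LMO2 do the PRMT5_down points all lie above the control points.

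No factor passed the test between PRMT5_down and control. With the threshold on limma's adjusted p at 0.05, 0 of the 10 factors and 0 of all 18132 genes were called, or 0% (limma adjusted p = 1 for each factor). Without adjustment 149 genes were under that threshold. The replicate block, a term for the replicate number, also left 0 genes called. In the planned design the mean signal of LMO2, the bridging LIM protein, was 1.35-fold higher in PRMT5_down, that of GFI1B, the repressor, 1.21-fold and that of ZFPM1, the GATA1 cofactor, 1.12-fold. MYB had a ratio of 0.93-fold. The order of the factors was not stable: without control replicate 3 the log2 difference was 0.45 for GFI1B and 0.32 for LMO2, and with each gene's most variable probe set it was 0.27 for GFI1B and 0.18 for LMO2. Without control replicate 1 it was 0.04 for ZFPM1, below the 0.11 of KLF1.

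LMO2 had a log2 signal of 9.26, 9.76 and 9.37 in PRMT5_down replicates 1, 2 and 3, against 9.03, 9.25 and 8.82 in control replicates 1, 2 and 3. Each PRMT5_down value lay above every control value, but the lowest of them stood only 0.01 above the highest control. Within replicate numbers 1, 2 and 3, LMO2 stood at 117%, 142% and 146% of its control. The means were 9.46 ± 0.26 in PRMT5_down and 9.03 ± 0.22 in control (SD, n = 3 each), which differ by 0.43 log2 units (SE 0.17, 95% interval 0.00 to 0.86). A two-sided exact permutation test over the arrays put p at 0.1 for LMO2, and a design of 3 and 3 arrays cannot go lower. LMO2 was the 1 factor of 10 whose groups did not overlap with PRMT5_down higher, a pattern shown by 1.26% of all genes. It was also the 1 factor higher in PRMT5_down and under the threshold before adjustment, as were 0.331% of all genes. With the replicate block the interval of LMO2 was 0.22 to 0.64, and the limma adjusted p was 0.46. Leaving out PRMT5_down replicate 2 brought the difference to 0.28. A second, dimmer LMO2 probe set differed by 0.18 (SE 0.24), with 0.15, 0.16 and 0.23 in numbers 1, 2 and 3, and its groups overlapped. Both probe sets of LMO2 were thus higher in PRMT5_down within every number, by different amounts.

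GFI1B had a log2 signal of 8.71, 9.17 and 9.22 in PRMT5_down replicates 1, 2 and 3, against 8.52, 8.64 and 9.12 in control replicates 1, 2 and 3. It was higher in PRMT5_down within each number, and the groups overlapped because control replicate 3 lay above PRMT5_down replicate 1. The difference was 0.19, 0.53 and 0.10 within numbers 1, 2 and 3, with a mean of 0.27 (SE 0.21, 95% interval -0.24 to 0.79). With the replicate block, GFI1B and LMO2 were the 2 factors of 10 higher in PRMT5_down and under the threshold before adjustment, as were 4.45% of all genes. GFI1B did not pass after adjustment (limma adjusted p = 0.59 with the block).

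GATA1, the lead factor of both lineages, had a log2 signal of 9.81, 10.48 and 10.48 in PRMT5_down replicates 1, 2 and 3, against 9.67, 10.28 and 10.41 in control replicates 1, 2 and 3. Both arrays of number 1 were low, and the groups overlapped. Within numbers 1, 2 and 3 GATA1 differed by 0.14, 0.20 and 0.07, a mean of 0.14 (SE 0.27). The 95% interval was -0.52 to 0.79 as planned and -0.05 to 0.32 with the replicate block. The other probe sets of GATA1 had a mean difference of 0.12 each, and all 3 probe sets were higher in PRMT5_down within every number. GATA1, LMO2 and GFI1B were the 3 factors of 10 with this direction in all 3 numbers, against 11.7% of all genes. No factor was lower in all 3, against 15.2% of all genes. Among genes above background on all arrays, 15.6% were higher in all 3 numbers.

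GATA2, the progenitor counterpart of GATA1, had a log2 signal of 10.75, 11.18 and 11.34 in PRMT5_down replicates 1, 2 and 3, against 11.00, 11.06 and 11.25 in control replicates 1, 2 and 3. The PRMT5_down array of number 1 was the lowest of the 6, and that of number 3 the highest. GATA2 differed by -0.25, 0.12 and 0.09 within numbers 1, 2 and 3, and by -0.01 on average (SE 0.17). Its 6 probe sets, from dim to bright, had mean differences of -0.07 to 0.00. All 6 were lower in PRMT5_down within number 1 and higher within number 2. Among them is a probe set whose name has the ending that Affymetrix uses where some probes also match other transcripts, so its value is uncertain.

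**Figure D2:**
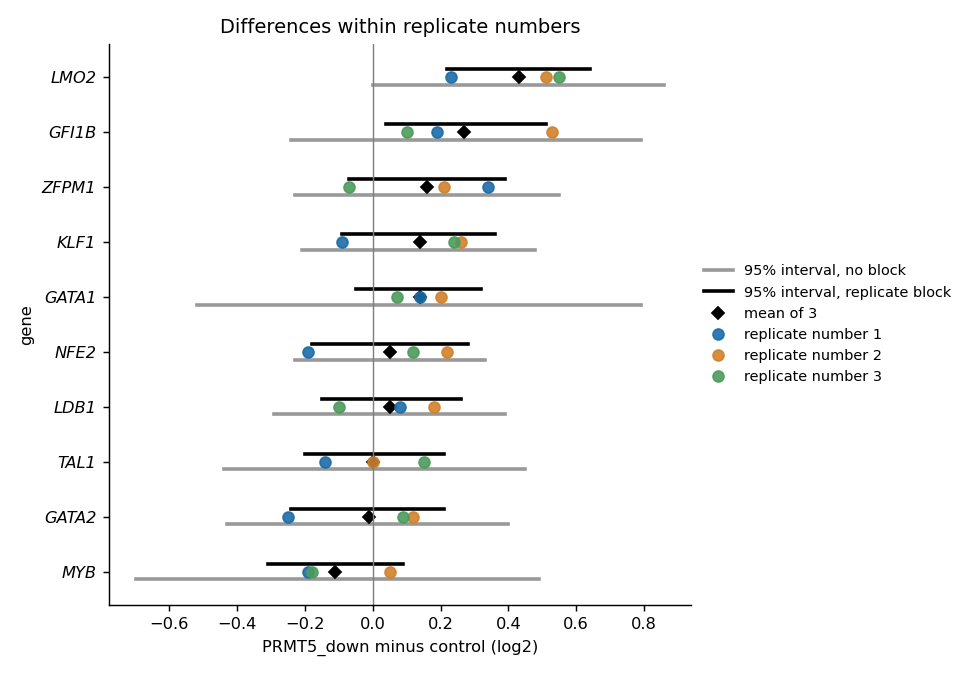
PRMT5_down minus control in log2 units for each factor, with a circle for each replicate number, a diamond for the mean, and the 95% interval of limma without (grey) and with (black) the replicate block. LMO2, GFI1B and GATA1 have all 3 circles above 0, and the black interval lies above 0 for LMO2 (0.22 to 0.64) and GFI1B (0.04 to 0.51).

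In the planned design, without the replicate block, the mean differences of TAL1, its scaffold LDB1 and the cofactor ZFPM1 were near or below their standard errors. With the block the SE was 0.09 for TAL1, 0.09 for LDB1 and 0.10 for ZFPM1. TAL1 had a log2 signal of 9.76, 10.27 and 9.94 in PRMT5_down replicates 1, 2 and 3, against 9.90, 10.27 and 9.79 in control replicates 1, 2 and 3. Both arrays of number 2 were high, and TAL1 differed by -0.14, 0.00 and 0.15 within numbers 1, 2 and 3, with a mean of 0.00 (SE 0.18, 95% interval -0.44 to 0.45). LDB1, which joins distant DNA sites, had a log2 signal of 8.66, 8.58 and 8.77 in PRMT5_down, against 8.58, 8.40 and 8.87 in control. Its difference of 0.05 (SE 0.14) had mixed signs over the numbers, and its second probe set differed by 0.02 (SE 0.17). ZFPM1 had a log2 signal of 8.22, 8.23 and 8.37 in PRMT5_down, against 7.88, 8.02 and 8.44 in control. The groups overlapped through control replicate 3, and ZFPM1 differed by 0.34, 0.21 and -0.07 within numbers 1, 2 and 3, a mean of 0.16 (SE 0.16).

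KLF1, the activator of adult beta globin, had a log2 signal of 10.09, 10.57 and 10.44 in PRMT5_down replicates 1, 2 and 3, against 10.18, 10.31 and 10.20 in control replicates 1, 2 and 3. The PRMT5_down arrays of numbers 2 and 3 were above all controls and that of number 1 below them. KLF1 differed by 0.14 on average (SE 0.14, 95% interval -0.21 to 0.48). NFE2 showed the same arrangement, with 9.76, 10.08 and 10.08 in PRMT5_down against 9.95, 9.86 and 9.96 in control, and differed by 0.05 (SE 0.11). In KLF1, NFE2 and GATA2 alike, number 1 had a negative difference and numbers 2 and 3 a positive one.

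MYB, which is high in progenitors and declines as red cells mature, had a log2 signal of 10.29, 9.79 and 10.25 in PRMT5_down replicates 1, 2 and 3, against 10.48, 9.74 and 10.43 in control replicates 1, 2 and 3. Both arrays of number 2 were low. MYB differed by -0.19, 0.05 and -0.18 within numbers 1, 2 and 3, a mean of -0.11 (SE 0.24, 95% interval -0.70 to 0.49). Its second probe set differed by -0.28, 0.15 and -0.29, a mean of -0.14 (SE 0.26). The probe sets of MYB shared the sign of the difference in each number, and neither passed (limma adjusted p = 1).

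**Figure D3:**
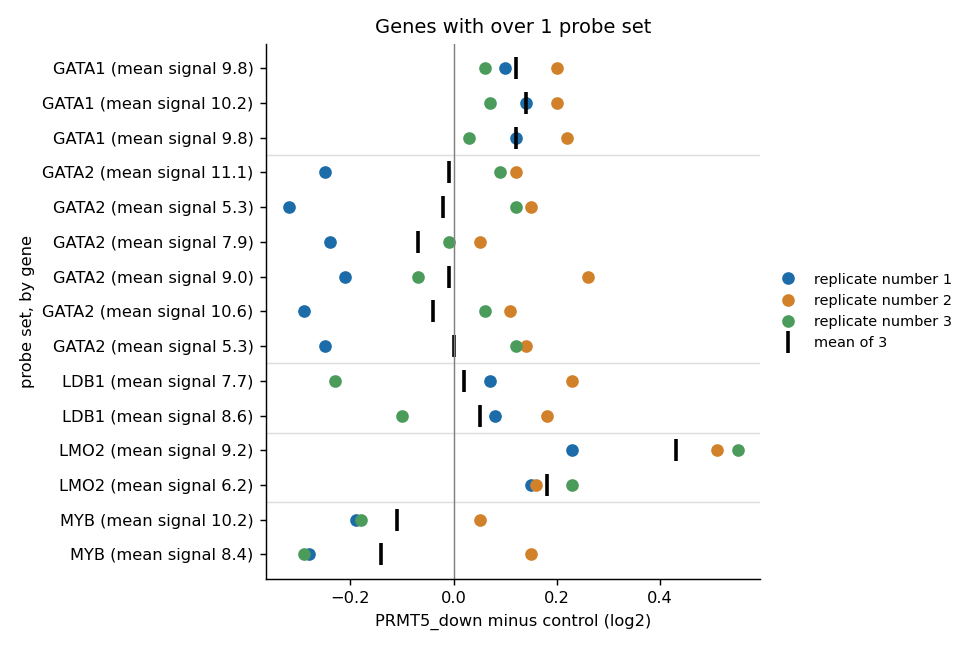
PRMT5_down minus control in log2 units for the 15 probe sets of the 5 factors with over 1 probe set, labelled by gene and mean log2 signal. Circles are replicate numbers and the bar is their mean. Number 1 lies below 0 in all 6 GATA2 probe sets, and all circles of GATA1 and LMO2 lie above 0.

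As a set, 8 of the 10 factors had a positive mean difference, TAL1 among them at 0.00, against 43.3% of all genes and 50.1% of genes above background on all arrays. Their median difference was 0.095, beside -0.017 over all genes and 0.003 over those above background. Of the 20 probe sets, 6 were higher in PRMT5_down within every number, all of them of GATA1, LMO2 or GFI1B, against 12.5% of all probe sets. Probe sets of one gene share its transcript and are not separate observations. The factors were chosen with earlier results of these data known.

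For most factors the range between the means of the replicate numbers was wider than the difference between the groups. The mean of number 1 was the lowest of the 3 for 7 factors, that of number 2 for LDB1 and MYB, and that of number 3 for LMO2. GATA1 averaged 9.74, 10.38 and 10.45 in numbers 1, 2 and 3, a range of 0.70 beside a group difference of 0.14. MYB averaged 10.38, 9.77 and 10.34, a range of 0.62, with the low value in another number than that of GATA1. TAL1 averaged 9.83, 10.27 and 9.86, and GFI1B 8.62, 8.91 and 9.17. For 9 of the 10 factors the range between number means exceeded the group difference, the exception being LMO2, with 0.41 beside 0.43. The share of all genes with this order was not counted. A range over 3 means of 2 arrays tends to exceed a difference between 2 means of 3 arrays from scatter alone. The median range was 0.41 for the factors, 0.28 over all genes and 0.45 over genes above background on all arrays. The median absolute group difference was 0.12 for the factors and 0.09 over genes above background on all arrays.

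The spread between numbers was also tested, with limma's F test for the number term beside the group term. It called 5 of the 10 factors, namely GATA1 (limma adjusted p = 0.0024), MYB (0.0051), TAL1 (0.024), GFI1B (0.025) and LMO2 (0.042). Of all genes 35.1% were called, and of those above background on all arrays 54.9%. The factors' share was thus near that of other genes with a clear signal. What a number shares is not given in the labels, and its part in the group differences was not tested beyond the values within each number.

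**Figure D4:**
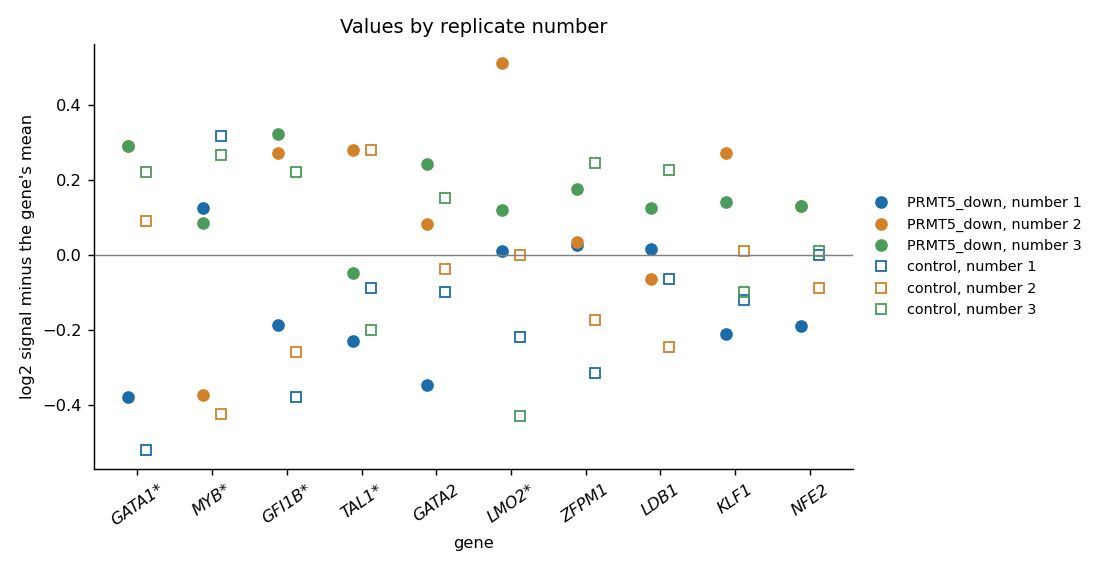
Log2 signal minus the gene's mean over the 6 arrays, with filled circles for PRMT5_down and open squares for control, coloured by replicate number, and genes ordered by the range between number means. An asterisk marks the 5 genes that limma's F test called between numbers. Both arrays of number 1 are lowest for GATA1, and both arrays of number 2 for MYB.

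Genes most like GATA1 and MYB over the 6 arrays were looked up among the other 10214 genes above background on all arrays. The 5 with the highest Pearson r to GATA1 were COX8A (r = 0.999), GAS2L1 (0.995), MAST3 (0.995), CHD4 (0.994) and DFFA (0.993). CHD4, the helicase of the NuRD corepressor complex, had a log2 signal of 9.45, 9.77 and 9.78 in PRMT5_down against 9.32, 9.70 and 9.75 in control. The 5 most like MYB were DESI1 (r = 0.993), SERPINF1 (0.993), EVL (0.991), COMTD1 (0.991) and TEAD4 (0.990). With 6 arrays that share 3 replicate numbers, and so many genes to choose from, these values are a description only.

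Partners of the factors fell on both sides of 0. Of 11 complex partners, which are E proteins, LIM and single-stranded DNA binding proteins and their relatives, 5 had a higher and 6 a lower mean in PRMT5_down, with a median difference of -0.03. The E protein gene TCF4 differed by 0.20 (SE 0.21), SSBP4 by -0.19 (SE 0.28), LMO4 by -0.06 (SE 0.11) and SSBP3 by 0.06 (SE 0.11). Of 23 corepressor and coactivator genes 10 were higher and 13 lower, with a median of -0.01. MTA1, a subunit of the NuRD complex, differed by -0.30 (SE 0.11), and RCOR1, the CoREST protein through which GFI1B acts, by 0.27 (SE 0.24). Their neighbours by p, RCOR2 and TRIM28, differed by -0.12 (SE 0.11) and -0.10 (SE 0.12). No gene of these lists passed (limma adjusted p = 1).

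Of 7 partners and relatives of NFE2, 5 had a higher and 2 a lower mean, with a median of 0.05. NFE2L2, the oxidative stress factor, differed by 0.14 (SE 0.18), NFE2L1 by -0.22 (SE 0.32), BACH2 by 0.24 (SE 0.32) and NFE2L3 by 0.19 (SE 0.50). Of 17 relatives of the factors in their own families, 10 were higher and 6 lower, and 8 were at or below background on all 6 arrays, GATA3 and GFI1 included. Among those with signal TAL2 differed by 0.35 (SE 0.29), KLF3 by 0.27 (SE 0.25), KLF10 by 0.24 (SE 0.31) and KLF2 by 0.18 (SE 0.16). None passed.

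Known targets of the factors had their largest differences in the red cell list. Of 18 erythroid target genes analysed 16 had a higher mean in PRMT5_down, with a median of 0.17, and 11 were higher within every number. Of all genes 43.3% had a higher mean and 11.7% were higher within every number. The 7 erythroid markers given above are all among these 18 genes, so the lists are not separate observations. The target lists were chosen with earlier results of these data known. The 4 with the smallest p in limma were the anion exchanger gene SLC4A1 at 1.00 (SE 0.36), AHSP, the chaperone of alpha globin, at 1.58 (SE 0.58), the spectrin gene SPTB at 0.42 (SE 0.18) and the heme enzyme gene ALAS2 at 0.24 (SE 0.11). Differences above that of SPTB but with wider errors were those of HBZ at 0.58 (SE 0.53), EPB42 at 0.58 (SE 0.29) and TFRC at 0.53 (SE 0.31). EPB42 was above background on only 2 arrays, and by at most 0.36. Of 13 megakaryocyte target genes 4 were higher and 9 lower, with a median of -0.09. The platelet tubulin gene TUBB1 differed by 0.68 (SE 0.26), RAB27B by -0.20 (SE 0.24), GP9 by -0.14 (SE 0.13) and VWF by -0.11 (SE 0.11). No gene of either list passed over all genes in limma, with or without the block. The errors given here are without the block. With it the SE was 0.14 for AHSP, 0.13 for SLC4A1 and 0.12 for HBZ. Before adjustment the block put 8 of the 18 erythroid and 1 of the 13 megakaryocyte target genes under 0.05 in limma. It put 1497 of all 18132 genes there. In bulk RNA, a change in the number of cells of a type and a change in RNA per cell cannot be told apart. Of 8 myeloid and mast cell markers 2 had a higher and 6 a lower mean in PRMT5_down, with a median of -0.06, and 5, MPO and ELANE included, were at or below background on all 6 arrays. The 2 higher ones were PRG2, an eosinophil granule gene, at 1.59 (SE 0.71) and LYZ at 0.10 (SE 0.17). The summed log2 signal of the 8 was 39.36 to 41.60 in PRMT5_down and 37.37 to 40.57 in control, a sum to which PRG2 adds the largest difference. The part of other cells in these differences was not tested.

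**Figure D5:**
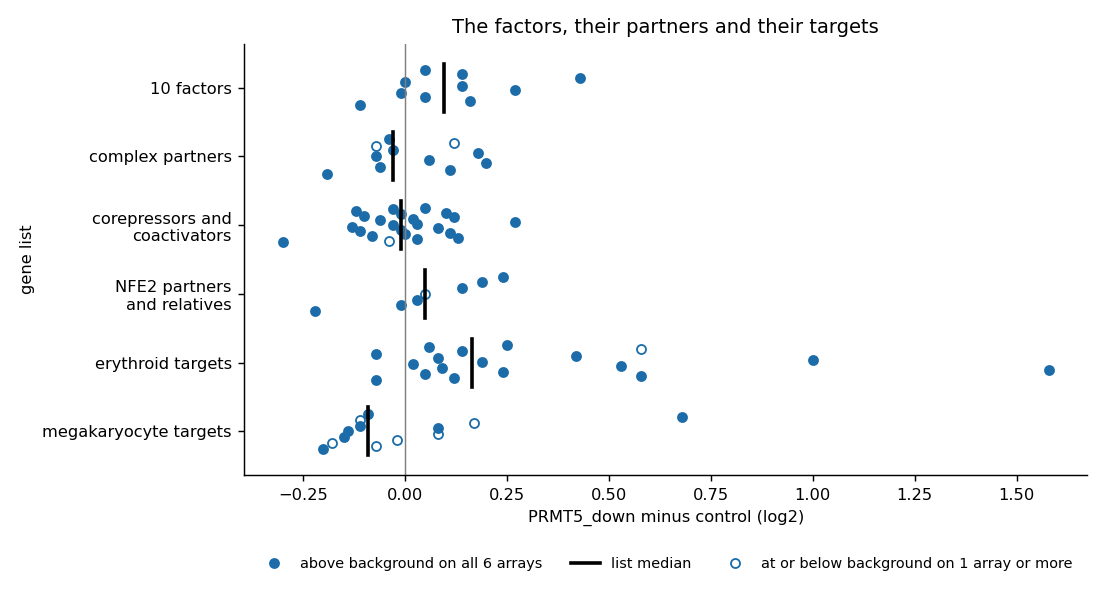
PRMT5_down minus control in log2 units for each gene of 6 lists, with filled circles for genes above background on all 6 arrays, open circles for the others and a black bar at each list's median. The vertical spread within a list has no meaning. The factors have a median of 0.095 and erythroid targets one of 0.17, with AHSP at 1.58 and SLC4A1 at 1.00 farthest to the right.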

How the data were processed

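The authors deposited log2 signals per probe set for 6 arrays, made with RMA per the submitters' processing notes. For the program's version and the chip definition, the entry is "not given in the sources used here". Since RMA gives all arrays one distribution, it hides any shift common to most genes.

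Of 49372 probe sets 79 were controls. Of the others 44988 had 1 gene symbol, 1832 had several and 2473 had none here. Those with 1 gave 18132 genes, named through the platform annotation and RefSeq gene identifiers. PRMT5_down was compared with control across all genes with limma 3.58.1 in R 4.3.3 (lmFit, eBayes, Benjamini-Hochberg, threshold 0.05), checked on simulated data, and again over all 49293 probe sets. Factors, PRMT5, up to 4 genes a list by smallest p among those above background on at least 3 arrays, and the 5 most like GATA1 or MYB were named. Named genes at or below background, HBZ, EPB42 and TFRC were singled out after their values were seen. Members and lists were chosen with earlier results of these data known, and the test between replicate numbers after the values were seen.

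Arrays with the same replicate number deviated together from their group means (r = 0.821 for number 1, 0.724 for number 2 and 0.788 for number 3, where 0.1 was the minimum). On this ground, which lies in the values and not in the labels, differences were given within numbers and the replicate block was run as an alternative. The planned test did not pair the arrays. For GATA1 the SE was 0.27 without the block and 0.08 with it. Each SE given is from the fit without the replicate block unless stated, and so includes the spread between numbers.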

Additional observations from a re-analysis of the deposited data

How the results depend on the processing

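No factor passed under any of the 18 alternatives run for each, and PRMT5_down stayed higher in LMO2, GFI1B, KLF1 and ZFPM1 and PRMT5 lower throughout. With 1 array left out LMO2 lay at 0.28 (without PRMT5_down replicate 2) to 0.54, GFI1B at 0.15 (without control replicate 1) to 0.45 (without control replicate 3), KLF1 at 0.03 (without PRMT5_down replicate 2) to 0.27 (without PRMT5_down replicate 1), ZFPM1 at 0.04 (without control replicate 1) to 0.32 (without control replicate 3) and PRMT5 at -1.19 to -0.68. Before adjustment the planned design put 149 genes under the limma threshold, and the replicate block 1497. The count was 57 without the dimmest 30% of genes, 37 among genes above background on at least 3 arrays (both of which test fewer genes), 230 with limma's trend and robust options and 430 when every single-symbol probe set was tested. Leaving out 1 array gave 92 (without PRMT5_down replicate 1) to 285 (without control replicate 2), and the block gave 429, 1734 and 620 without number 1, 2 and 3. The cause was not tested. Limma called 0 genes in all of these, and the replicate block changed no call. Differences that turned sign, none called, were TAL1 at -0.01 with quantile normalization again and GATA2 at 0.08 with array weights. Over single arrays left out GATA1 lay at -0.09 (without control replicate 1) to 0.36, GATA2 at -0.14 to 0.16, TAL1 at -0.14 to 0.15, LDB1 at -0.06 (without control replicate 2) to 0.18, NFE2 at 0.00 to 0.16 and MYB at -0.35 to 0.05. Besides those named, the sign turned for GATA2 without PRMT5_down replicate 1 or control replicate 3, for TAL1 without PRMT5_down replicate 2 or control replicate 1 or 3, for NFE2 without PRMT5_down replicate 2 or 3 and for MYB without PRMT5_down replicate 2 or control replicate 1. Over numbers left out with the block, GATA2 lay at -0.08 to 0.10, TAL1 at -0.07 to 0.08, LDB1 at -0.01 to 0.13 and NFE2 at -0.03 to 0.17. With the highest olfactory receptor gene as background (7.65 to 7.99 by array), 9 of the 10 factors were above it on all arrays. Differences of the size seen here, near 0.1 log2 units for most factors, are within what 3 arrays a group leave unresolved.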

Other observations

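Factors of neighbouring blood lineages differed in whether they had a signal. Of 11 analysed, 7 were above background on all 6 arrays, beside 56.3% of all genes. Of these 7, RUNX3 (by 0.36 to 0.48 log2 units), MEIS1 (0.09 to 0.82), SPI1 (0.40 to 0.77) and ETV6 (0.18 to 1.05) stood close to it. RUNX3 had the same value, 5.37, on all 6 arrays, so its range is only that of the background. At or below background on all 6 were 3, among them FLI1 and ERG, which drive megakaryocyte and stem cell genes. IKZF1, a lymphoid factor, differed by 0.20 (SE 0.16), with 0.17, 0.30 and 0.13 within numbers 1, 2 and 3. HHEX, an early progenitor factor, differed by -0.13 (SE 0.21), ETV6 by 0.15 (SE 0.25) and CBFB by 0.10 (SE 0.18), and none passed limma over all genes.

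Of 10 progenitor genes linked to GATA2, MYB or repression by GATA1, 3 had a higher and 6 a lower mean in PRMT5_down, with a median difference of -0.06. LYL1, the close relative of TAL1, differed by -0.07 (SE 0.27), CCNB1 by -0.15 (SE 0.51) and BCL2 by -0.13 (SE 0.11). KIT and CD34, surface markers of progenitors, were at or below background on all 6 arrays.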
